A study of Bombyx mori with 2 samples.

Results

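Among the 1 Mb windows of the silkworm scaffolds that held enough variant sites to be compared, 118 of 303 had no mixed site, that is no site covered by at least 10 reads at which 20% to 80% of the reads carried the alternative allele. These windows are the subject of the report. The epidermis of the plain silkworm strain 932VR, labelled wildtype, and of the mutant q-lp (purple quail-like), which arose from 932VR and has bred true through more than 10 inbred generations, was sequenced by RNA-Seq. The skin colour and markings of q-lp larvae differ from those of 932VR. Both libraries were taken from larvae of the 4th instar at 6 hours after molting, and each was a pool of 3 silkworms. There was 1 library per strain. The deposited tables of variant sites bear the names of both strains and give 1 set of read counts without naming a library. These counts are taken here as the reads of both libraries together. No value below can be given for one strain alone, and no difference between the strains was tested.

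A variant site is a position where reads differ from the silkworm genome sequence of SilkDB. Its Coverage is the number of reads at the site, and its Frequency is the percent of these reads that carry the alternative allele. After lines that repeat a site in overlapping genes were counted once, the tables held 47001 sites, 45520 single-base sites and 1481 indels, in 6641 genes on 312 scaffolds. Coverage ranged from 2 to 100 reads with a median of 7. A site was listed with at least 2 alternative reads, and the lowest Frequency was 9.09%. Sites with a Coverage of 10 or more, 18174 in all, were placed in fixed windows of 1000000 bases, and windows with at least 20 sites were kept. A site was taken as mixed when its Frequency was from 20% to 80%. The 118 windows were chosen by this Frequency, so their lack of mixed sites is the rule itself and not a result. They are 38.9% of the windows compared (exact 95% confidence interval 33.4% to 44.7%, which covers counting error only). The chosen windows are called unmixed windows below, and the 185 windows with 1 or more mixed sites are called the other windows. Windows, sites and genes are not replicates, because sites of one gene share reads and sites of one region share a chromosome segment, so the values below are descriptions without tests.

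As background, a larva carries a maternal and a paternal copy of each autosome, and RNA reads show the alleles of the copies that are transcribed. Where every silkworm in both pools carries the same allele on both copies, the reads at that position show that allele only. Reads of both alleles appear where silkworms differ from each other or carry different alleles on their copies and both are transcribed. Continued inbreeding of a strain lowers the share of positions at which its members differ, and it does so in long segments, because neighbouring positions are inherited together. The allele of a strain can differ from the genome sequence at such a fixed position, and it is then listed with a Frequency of 100%. A gene that is read in one library only can also show a single allele, and the tables cannot tell this apart from an allele shared by both libraries.

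Some of the indels of the unmixed windows are long enough to show what a listed site is. The sequences below are the insertions and deletions of 9 or more bases with 1 alternative allele, as the tables write them on the SilkDB scaffolds, each with a Frequency of 100%. Capitals mark the bases that the reads have in addition to the genome sequence (insertion) or lack (deletion). Where the capitals end with a copy of the bases before them, the same change can also be written further to the left.

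BGIBMGA010654, deletion of 19 bases at Bm_scaf84:378518-378541, 13 reads: atttgCTACTCGCCGGATCGTTTG
BGIBMGA001125, deletion of 15 bases at Bm_scaf1:4131743-4131770, 10 reads: cgttgttctagtcTCAGTTGTTCTAGTC
BGIBMGA010992, deletion of 12 bases at Bm_scaf83:605623-605639, 14 reads: cgagcTCGACGCGGAGC
BGIBMGA002659, insertion of 10 bases at Bm_scaf20:398746-398748, 18 reads: agaTGGACATTGA
BGIBMGA007128, insertion of 9 bases at Bm_scaf21:4816060-4816071, 11 reads: acgggactcgcgGGACTCGCG

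No read with the genome's allele was counted at any of these 5 positions. The 9 inserted bases in BGIBMGA007128 are a second copy of the 9 bases before them. The gene with the longest of these deletions, BGIBMGA010654 (Bm_scaf84, 375514 to 379175), belongs to the study's list of cuticle protein genes, where its domain is annotated as casein and not as insect cuticle protein. For the deletion in BGIBMGA001125, the listed position lies in the gene (4130863 to 4131753), but the capitals as written lie beyond its listed end. They end with a copy of the bases before them, so the same deletion can also be written partly inside the gene. The tables pair each site with a gene but do not state whether it lies in an exon, an intron or a UTR.

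**Figure D1:**
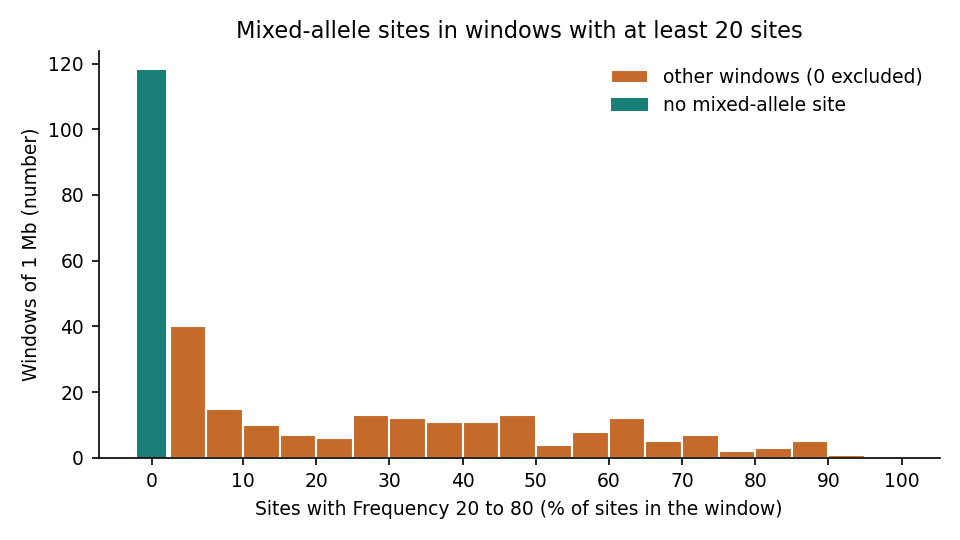
The horizontal axis gives the percent of sites with a Frequency of 20% to 80% in a window and the vertical axis the number of 1 Mb windows with at least 20 sites. The 118 unmixed windows form the bar at 0, and the 185 other windows spread from 1.02% to 92.1%.

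The unmixed windows held 5198 sites, and almost all of them showed the alternative allele only. A Frequency of 100% was listed for 5105 sites, which is 98.2% (95% Wilson interval 97.8% to 98.5%). In 62 of the 118 windows every site was at 100%. In the other windows 6859 of 10863 sites, or 63.1%, were at 100%, and 32.2% were mixed. The mixed sites of the other windows had a median Frequency of 43.8%, with quartiles of 31.8% and 57.1%. Since Frequency chose the windows, these values describe the choice.

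The 93 sites of the unmixed windows that were not at 100% fell into a small group on each side of the mixed range. Above it lay 54 sites, from 83.3% to 98.9%, and 44 of them had a single read with the genome's allele. Below it lay 39 sites, from 9.52% to 18.2%, and 36 of them had exactly 2 alternative reads, the lowest number at which a site is listed. Their Coverage was 11 to 30 reads with a median of 14. These 39 sites were spread over 30 windows with at most 3 in a window. They made up 0.750% of the sites of the unmixed windows (95% Wilson interval 0.549% to 1.02%), against 2.14% (1.88% to 2.42%) in the other windows. Frequency chose the windows, and 2 alternative reads of 10 count as a mixed site, so this difference is partly set by the rule. The intervals treat linked sites as independent, and the difference was not tested. Of the sites of the unmixed windows at which the genome's allele was the commoner one, the most deeply covered was in BGIBMGA012072 on Bm_scaf24, at 432526, where 4 of 30 reads had the alternative base.

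**Figure D2:**
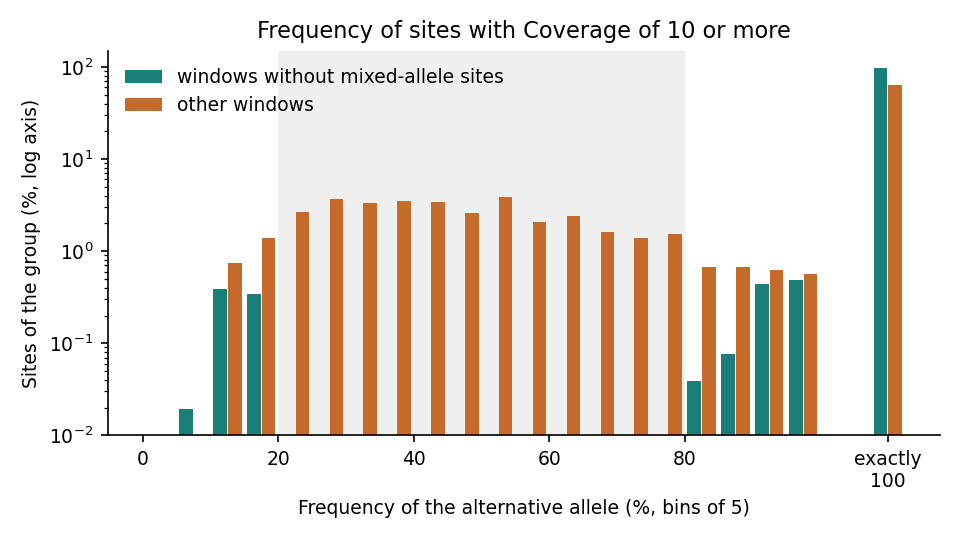
The horizontal axis gives the Frequency of the alternative allele in bins of 5%, with exactly 100% set apart, and the vertical axis the percent of the sites of each group on a log scale. The shaded range from 20% to 80% is empty for the unmixed windows by the rule, and 98.2% of their sites stand at exactly 100%, against 63.1% in the other windows.

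At the edge of the rule, 28 windows held exactly 1 mixed site and 13 held 2. Of the 5 windows with 1 mixed site that had the most sites, 2 were kept out by a site with 2 alternative reads of 10, a Frequency of exactly 20%. One was on Bm_scaf35 from 2000001 to 3000000, where 94 of 98 sites were at 100%, and the mixed site lay in BGIBMGA001643. The other was the first megabase of Bm_scaf78, with 75 of 78 sites at 100%, where the mixed site lay in BGIBMGA013621. The mixed site of the third, on Bm_scaf49 from 1000001 to 2000000, had a Frequency of 76.9% at 13 reads. The remaining ones were on Bm_scaf55 from 1000001 to 2000000, with a mixed indel at 21.1%, and in the first megabase of Bm_scaf59, with a site at 30%. Inside the rule, the sites nearest to the mixed range had a Frequency of 18.2% and 83.3%. The lowest number of sites, 20, was found in 3 unmixed windows, on Bm_scaf2 from 11000001 to 12000000, on Bm_scaf99 from 1000001 to 2000000 and in the first megabase of Bm_scaf145, and all 20 sites were at 100% in each.

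The sites covered by fewer than 10 reads were not used to choose the windows, so they give a second look at the same regions. At a Coverage of 5 to 9 reads, 60 of 3294 sites in the unmixed windows were mixed, which is 1.82% (95% Wilson interval 1.42% to 2.34%). In the other windows 1374 of 5803 such sites were mixed, or 23.7% (22.6% to 24.8%). Many of these sites lie in genes that also hold a site used for the choice. In genes without any site of Coverage 10 or more, 35 of 802 sites were mixed in the unmixed windows, or 4.36% (3.15% to 6.01%), against 306 of 1281, or 23.9% (21.6% to 26.3%), in the other windows. Thus the low share of mixed sites extended to genes that the rule had not used, and the share was higher there than over all sites of this Coverage. At a Coverage of 2 to 4 reads the shares were 0.491% of 5501 sites and 6.36% of 8412 sites. A site of 2 reads can be listed at 100% only, since at least 2 alternative reads are needed.

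The share of mixed sites at a Coverage of 5 to 9 followed the share at higher Coverage across the classes of windows. It was 4.62% in the 40 other windows with up to 5% mixed sites, 11.8% in the 32 windows with over 5% and up to 20%, 26.1% in the 42 windows with over 20% and up to 40%, and 43.5% in the 71 windows above that. In the 28 windows with exactly 1 mixed site it was 3.73% (95% Wilson interval 2.71% to 5.12%), against 1.82% (1.42% to 2.34%) in the unmixed windows. These intervals treat linked sites as independent and do not measure the spread between windows, so the difference was not tested.

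**Figure D3:**
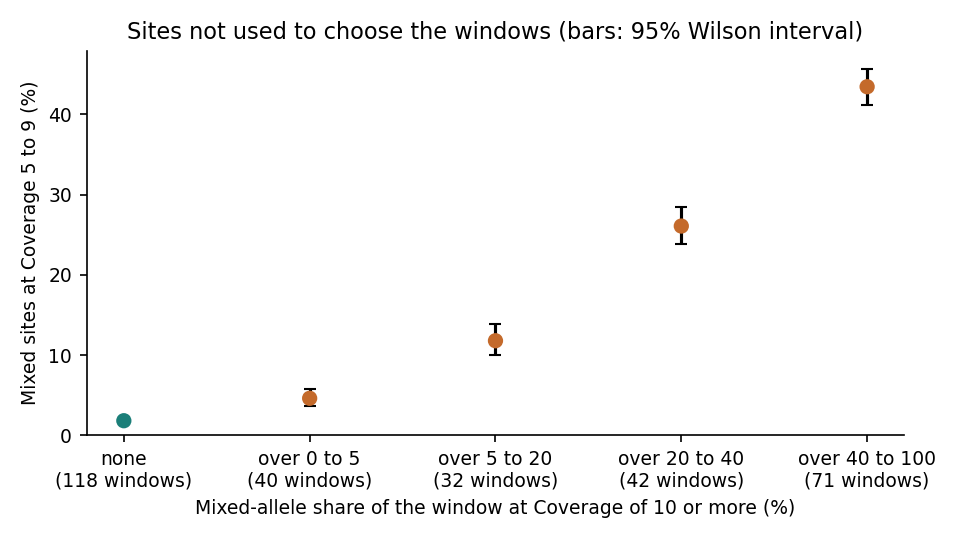
The horizontal axis gives 5 classes of windows by their share of mixed sites at a Coverage of 10 or more, and the vertical axis the percent of mixed sites among the sites with a Coverage of 5 to 9, with 95% Wilson intervals that cover counting error only. The share is 1.82% in the unmixed windows and 43.5% in the class with the most mixed sites.

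Not every unmixed window stayed without mixed sites at this lower Coverage. No mixed site of Coverage 5 to 9 was listed in 86 windows, 1 was listed in 16 windows and 2 or more in 16 windows, with at most 5 in a window. In the other windows 163 of 185, or 88.1%, had such a site. The 60 mixed sites lay in 51 genes, 11 of them were indels, and 35 had exactly 2 alternative reads. Their Frequency ran from 22.2% to 80% with a median of 40%. BGIBMGA001031 (Bm_scaf1, 4411694 to 4428740) held the most, 4 sites with 6 to 8 reads and a Frequency of 25% to 33.3%. BGIBMGA001469 (Bm_scaf7, 676591 to 687035) held 3 sites with 7 to 9 reads and a Frequency of 28.6% to 66.7%.

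The depth at the sites was alike in both kinds of windows. The median Coverage was 20 reads over the sites of the unmixed windows and 21 over those of the other windows, and 46.9% and 46.3% of the sites were covered by 10 to 19 reads. By window, the median Coverage ran from 12 to 65.5 reads in the unmixed windows, with a median of 20, and from 13 to 58 in the other windows, also with a median of 20.

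The unmixed windows held fewer sites than the others. The number of sites per window ran from 20 to 105 with a median of 38, against 20 to 227 with a median of 49 in the other windows. This difference is partly set by the rule, since a window with more sites has more chances to hold a mixed one. The windows also did not cover equal lengths. From first to last site the median span was 638996 bases in the unmixed windows and 705059 in the others. The shortest spans were 1432 and 1688 bases, so the counts are not densities per megabase of sequence. Of the windows with 20 to 39 sites, 51.2% were unmixed, of those with 40 to 79 sites 35.0%, and of those with 80 or more 17.8%. Sites at a Frequency of 100% numbered 20 to 104 per unmixed window, with a median of 36, and 2 to 155 per other window, with a median of 30. These last counts follow from the Frequency values that chose the windows, and nothing is read from them.

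Sites were listed in 1036 genes of the unmixed windows and in 1885 genes of the other windows, of which 3 genes crossed a border and were counted in both. An unmixed window had sites in 1 to 20 genes with a median of 8, and an other window in 1 to 27 genes with a median of 9. Within the bands of site number the medians were 7 against 6, 9.5 against 10 and 13 against 14 genes. A gene had a median of 3 sites in either kind of window. The most were 56 sites in the unmixed windows and 108 in the others. In the unmixed windows 286 genes had a single site, while the 150 genes with 10 or more sites held 2518 sites, which is 48.4% of all. In a median unmixed window the gene with the most sites held 35.8% of the sites, so the state of a window often rested on few genes. In the first megabase of Bm_scaf189 all 25 sites lay in 1 gene, BGIBMGA004266.

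**Figure D4:**
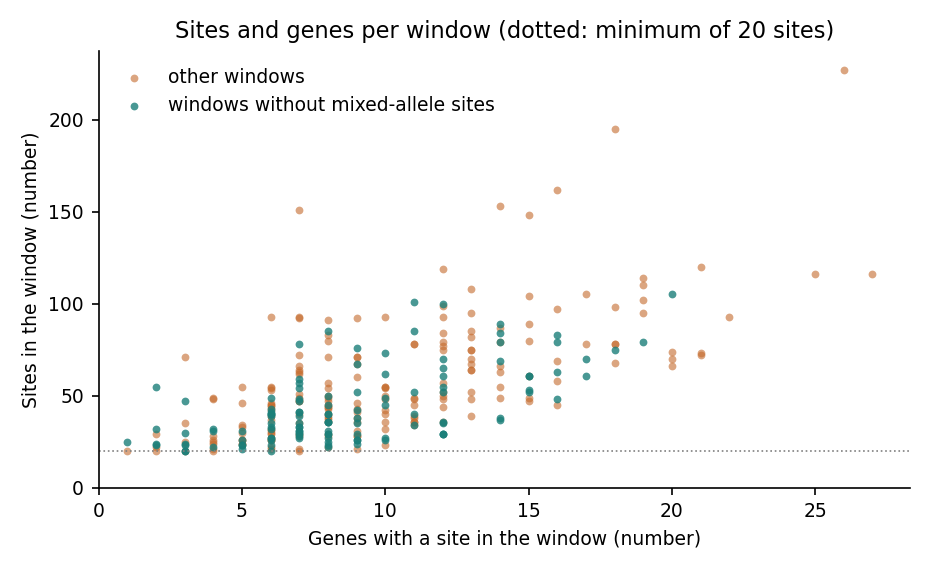
The horizontal axis gives the number of genes with a site in a window and the vertical axis the number of sites of Coverage 10 or more, with 1 point per window. The unmixed windows reach 105 sites and 20 genes, while the other windows reach 227 sites and 27 genes, and both groups overlap over most of the range.

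The kinds of variant were much the same in both groups of windows. Indels were 94 of 5198 sites in the unmixed windows, or 1.81% (95% Wilson interval 1.48% to 2.21%), and 192 of 10863 in the others, or 1.77% (1.54% to 2.03%). Transitions, that is exchanges between A and G or between C and T, were 68.5% of the single-base sites with 1 alternative base in the unmixed windows and 68.2% in the others. Among indels with 1 alternative allele, 61 of 91 were insertions in the unmixed windows and 123 of 189 in the others. A single base was gained or lost in 63 of 91 and in 128 of 189. The length was a multiple of 3, which keeps the reading frame where an indel lies in a coding exon, in 9 of 91 and in 23 of 189. For each of these shares the intervals of the groups overlap. A Frequency of 100% was listed for 89 of the 94 indels of the unmixed windows, or 94.7%, and for 98.3% of their single-base sites.

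The 3 genes of the unmixed windows with 4 indels each were BGIBMGA006589, BGIBMGA005700 and BGIBMGA001548. The last of them (Bm_scaf7, 4868593 to 4886741) is annotated by the study with protein tyrosine kinase activity, the transfer of phosphate to tyrosines of proteins, and its 22 sites had a Coverage of 13 to 68 reads. BGIBMGA007911 (Bm_scaf3, 6253212 to 6268517) had 3 indels among 15 sites, all at 100%.

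The unmixed windows were found on 75 of the 132 scaffolds that had a window to compare. On 37 scaffolds only unmixed windows were found, 30 of these with a single window, on 57 scaffolds only other windows, and on 38 scaffolds both kinds. None of the 8 windows of Bm_scaf5, the 8 of Bm_scaf9 and the 6 of Bm_scaf13 was unmixed, while 4 of 11 were unmixed on Bm_scaf1, 4 of 7 on Bm_scaf2 and 4 of 6 on Bm_scaf12. Of the 140 pairs of neighbouring windows that could be compared, both were unmixed in 21, both were others in 67 and 1 of each was found in 52. Of the 75 unmixed windows with a neighbour to compare, 35, or 46.7%, had an unmixed one beside them. This count depended on the settings, with 65 such windows when the borders were shifted by 500 kb and between 14 and 90 over all alternatives, so the runs described next hold for these borders. Of the 133 other windows with such a neighbour, 46, or 34.6%, had an unmixed one. The remaining 43 unmixed windows had no neighbour with at least 20 sites.

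The 118 windows formed 83 single windows, 10 runs of 2, 2 runs of 3, 1 run of 4 and 1 run of 5 windows. The run of 5 covered all windows of Bm_scaf33, from 1 to 5000000. Its windows had 41, 35, 79, 59 and 40 sites in 7, 9, 16, 7 and 6 genes, in order of position. All 254 sites listed on this scaffold at a Coverage of 10 or more, from 90565 to 4286266 in 45 genes, were outside the mixed range, and 248 of them were at 100%. At a Coverage of 5 to 9 a single one of 153 sites was mixed. The gene for the heavy chain of non-muscle myosin (BGIBMGA005536, 3783294 to 3787572), a motor protein that works on actin filaments, lies in the run with 2 sites at 100%, covered by 29 and 94 reads.

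The run of 4 windows covered Bm_scaf36 from 1 to 4000000, with 29, 31, 49 and 61 sites. Of its 170 sites in 40 genes, 8 were indels and 167 were at 100%. None of its 124 sites of Coverage 5 to 9 was mixed. This run and that of Bm_scaf33 had no mixed site of Coverage 10 or more anywhere on their scaffolds.

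The runs of 3 windows each had an edge on one side. On Bm_scaf28, from 1 to 3000000, there were 180 sites in 35 genes, 177 of them at 100%, and none of the 107 sites of Coverage 5 to 9 was mixed. The window after it, from 3000001 to 4000000, was mixed at 38 of 45 sites, or 84.4%. The last site before the edge lay at 2949161 and the first site after it at 3463069 in BGIBMGA001966, with a Frequency of 67.9%, so that the change falls in a gap without sites of Coverage 10 or more. On Bm_scaf12, from 4000001 to 7000000, all 102 sites in 19 genes were at 100%. At a Coverage of 5 to 9, 1 of the 70 sites of this run was mixed. The scaffold held 277 sites of Coverage 10 or more and 2 of them were mixed, in neighbouring windows before the run. The later of these lay at 3159887 in BGIBMGA011362. With the sites between it and the run, the stretch without a mixed site of Coverage 10 or more had 140 sites in 25 genes over 3502305 bases.

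**Figure D5:**
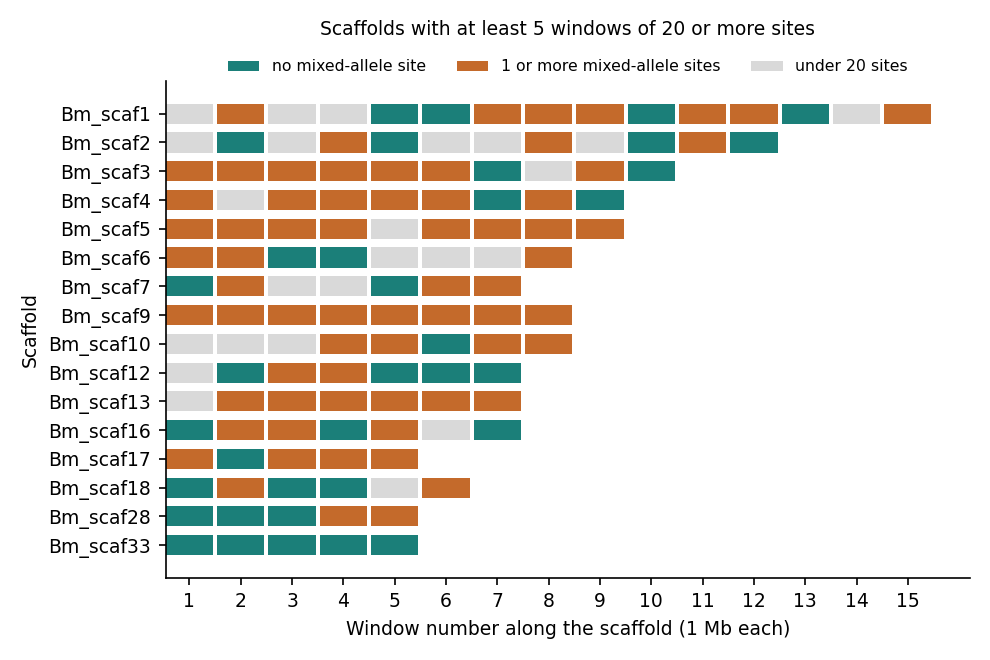
Each row is a scaffold with at least 5 windows of 20 or more sites, and each box is a window of 1 Mb, in order along the scaffold. Unmixed windows, other windows and windows with fewer than 20 sites have different colours. All 5 windows of Bm_scaf33 and the first 3 of Bm_scaf28 are unmixed, and none of Bm_scaf5, Bm_scaf9 and Bm_scaf13 is.

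The unmixed window with the most sites was the first megabase of Bm_scaf84, with 105 sites in 20 genes and 104 of them at 100%. Its sites were spread widely, and the gene with the most, BGIBMGA010635, held 14. The next was Bm_scaf10 from 5000001 to 6000000, with 101 sites in 11 genes. Here 56 sites, or 55.4%, lay in BGIBMGA006589 (5041133 to 5061449), the gene with the most sites of all unmixed windows. Its sites had a Coverage of 10 to 82 reads with a median of 33, and 54 of the 56 were at 100%. Bm_scaf16 from 3000001 to 4000000 had 100 sites in 12 genes, of which 35 were in BGIBMGA011636, all at 100%.

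The neighbouring windows of Bm_scaf1 from 4000001 to 5000000 and from 5000001 to 6000000 had 89 and 85 sites. In the first of them 30 sites lay in BGIBMGA001129 (4597837 to 4630499), which the study annotates with glucosylceramidase activity, the cleavage of glucose from a sphingolipid, and with transcription factor activity. This window also had 5 mixed sites of Coverage 5 to 9, among 57, while the second had none among 63. In the second, 25 of the 26 sites of BGIBMGA001135 were at 100%, with a Coverage of 32 to 90 reads. The next in number of sites were the first megabase of Bm_scaf81 with 85, Bm_scaf2 from 1000001 to 2000000 with 84, the first megabase of Bm_scaf106 with 83, and Bm_scaf32 and Bm_scaf33, each from 2000001 to 3000000, with 79 sites. In these 5 windows between 78 and 84 sites were at 100%.

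Of the other genes with many sites, BGIBMGA009816 (Bm_scaf161, 76093 to 95650) had 51 sites with a Coverage of 11 to 87 reads, all at 100%. BGIBMGA001935 (Bm_scaf28, 1854746 to 1865324) had 39 sites, all at 100%, with a median Coverage of 21 reads. It is annotated by the study with the dystrophin-associated glycoprotein complex, which in vertebrates links the cytoskeleton of muscle cells to the matrix around them. BGIBMGA009401 on Bm_scaf81 and the mucin gene BGIBMGA013949 on Bm_scaf29 (272105 to 277655) had 35 sites each. Mucins are heavily glycosylated proteins of surfaces and secretions. The mucin sites had a Coverage of 13 to 85 reads, 34 of the 35 were at 100%, and the lowest Frequency was 98.8%. The densest of the 10 genes with the most sites was BGIBMGA007922 (Bm_scaf3, 6832063 to 6835272), with 34 sites or 10.6 per kb of gene, all at 100%. BGIBMGA001470 and BGIBMGA005700 had 34 sites each and BGIBMGA014072 had 31. The sources used here give no name for most of these identifiers.

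Cuticle protein genes, which encode the structural proteins that bind chitin in the larval skin, were used as markers of the labelled tissue, the epidermis. Of the 208 genes that the study lists, 80 had a site at any Coverage, from 2 to 92 reads, so reads of these genes were among those counted. Over all genes, 6641 had a site. Their share of all silkworm genes was not computed, so the 80 of 208 are not read as many or few. A listed site needs a difference from the genome sequence as well as reads, so the 80 genes are no test of the tissue. A site with a Coverage of 10 or more was found in 39 genes, 16 of them in unmixed windows, 15 in other windows and 8 in windows with fewer than 20 sites. All 55 sites of the 16 genes were at 100%, while 66 of the 112 sites of the 15 genes were mixed. Over all genes, 1036 had sites in unmixed and 1885 in other windows, with 98.2% of sites at 100% in the former and 32.2% mixed in the latter, as the rule sets. Cuticle protein genes are a family with similar copies, and the authors' alignment could have placed reads of one copy on another.

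Most cuticle protein genes of the unmixed windows lay on Bm_scaf18, with 11 genes and 33 sites. The first megabase of this scaffold held 6 of them, among them BGIBMGA000333 with 5 sites covered by 51 to 67 reads and BGIBMGA000336 with 5 sites covered by 10 to 14 reads. The larval cuticle protein LCP-22 (BGIBMGA000332, 611711 to 612843) lies in the same window, with 3 sites at 100% covered by 12 to 81 reads. The window from 3000001 to 4000000 held another 5, among them BGIBMGA000247 with 5 sites covered by 19 to 91 reads and BGIBMGA000438 with 4 sites covered by 21 to 90 reads. Neither window had a mixed site of Coverage 5 to 9, among 52 and 53 sites. Of the 2 windows between them, that from 1000001 to 2000000 was mixed at 38 of 97 sites and that from 2000001 to 3000000 at 0 of 55. Outside this scaffold, BGIBMGA010654 on Bm_scaf84, whose 19-base deletion is printed above, had the most sites of the 16 genes, 14, covered by 10 to 47 reads. BGIBMGA002664 on Bm_scaf20 had 4 sites covered by 22 to 89 reads.

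Part of the study's genes of pigment formation had a site that could be placed in a window. Over all genes, 1036 had sites in unmixed and 1885 in other windows. The pigment lists are short, so their counts are descriptions only. Of the 13 genes for melanin that the study lists, 4 had a site with a Coverage of 10 or more, and 2 of them, *yellow-e* and *yellow-h2*, lay in an unmixed window, on Bm_scaf92 from 1000001 to 2000000. Both belong to the *yellow* family, whose founding member is needed for black pigment in *Drosophila*. *Yellow-h2* (BGIBMGA007255, 1443891 to 1449149) had 6 sites covered by 15 to 31 reads and *yellow-e* (BGIBMGA007253, 1506236 to 1527876) had 4 sites covered by 38 to 68 reads, all at 100%. The window had 26 sites in 10 genes, all at 100%, and 2 of its 50 sites of Coverage 5 to 9 were mixed. Of the other melanin genes, 1 lay in an other window with 2 sites, 0 of them mixed, and 1 in a window with fewer than 20 sites. No ommochrome or pteridine gene of the study's lists had a site with a Coverage of 10 or more in an unmixed window. Of the 4 ommochrome genes, 2 lay in other windows, where 10 of their 11 sites were mixed, and 1 of the 2 pteridine genes lay in an other window with 1 site that was not mixed.

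Of the 8 chitin genes, 4 had a site with a Coverage of 10 or more. Of these, 2 lay in windows with fewer than 20 sites and 1 in an other window, with 1 of 5 sites mixed. *NAG* (BGIBMGA011646, Bm_scaf16, 3176500 to 3194154) encodes β-N-acetyl-glucosaminidase, an enzyme that degrades the chitin pieces left by chitinase. It lay in an unmixed window. It had 11 sites at 100% with a Coverage of 10 to 73 reads. Of the 5 nuclear receptor genes, as the study groups them, 3 had a site with a Coverage of 10 or more. Of these, 1 lay in a window with fewer than 20 sites and 1 in an other window, with 3 of 4 sites mixed. *E74a* (BGIBMGA007970, Bm_scaf3, 9392944 to 9394419), whose counterpart in *Drosophila* is switched on early by ecdysone, lay in an unmixed window. It had 4 sites at 100%, each covered by 15 or 16 reads. Of the 3 housekeeping genes, 1 had a site of this Coverage, and it lay in an other window. Altogether 22 genes of these lists had sites in unmixed windows, where 1036 genes had sites in all. Of the 117 sites of the 22 genes, 116 were at 100%, against 98.2% over all sites of the unmixed windows. The same genes held 148 sites covered by fewer than 10 reads, and 0 of these were mixed. Over all genes of the unmixed windows the mixed share was 0.491% at 2 to 4 reads and 1.82% at 5 to 9 reads, so a count of 0 is near the background. The study chose the 12 prominent genes as differentially expressed between these libraries. Of the 8 with a site of Coverage 10 or more, the mucin, LCP-22 and myosin genes lie in unmixed windows. The remaining 5 lie in other windows, where 4 of their 14 sites were mixed. Reads of the prominent genes may come mostly from one library, so a single allele at their sites cannot be taken as shared by both pools.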

How the data were processed

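The deposited tables, 1 of single-base variants and 1 of indels, give for each site the count of reference and alternative reads and their sum, the Coverage, and the alternative reads as a percent of it, the Frequency. The authors aligned the filtered reads of both libraries to the SilkDB silkworm genome. Which aligner and which variant caller were used, and with what filters, is not given in the sources used here. Coverage equalled the sum of both read counts at every site and did not exceed 100. Whether deeper sites were capped or left out is not given in the sources used here. The tables do not separate the libraries, and that their counts hold the reads of both is taken from their names.

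Sites were made unique by scaffold, position and alleles, which removed 43 of 47044 lines. A site in overlapping genes was assigned to the gene listed first, except in the counts of gene lists. Gene names, lists and annotations were taken from the study's supplementary tables, without their values; the annotation terms cover part of the genes only. The RefSeq gene table matched 0 of the identifiers. Named windows were the 10 unmixed windows with the most sites, those of all runs of 3 or more and those with the fewest sites, and the 5 windows with 1 mixed site that had the most sites. Named genes were the 10 with the most sites, the 5 with the most indels, the leading genes of the 5 windows with the most sites and the list genes in unmixed windows, of the cuticle protein genes the 5 with the most sites (6 with a tie). The windows of the list genes and of the edges of runs, the window with 1 gene and the genes of long indels and of sites below 100% were added after their values were seen. The windows and lists were chosen with earlier results of these data known. Intervals are 95% Wilson or exact (Clopper-Pearson) intervals (scipy 1.17.1, pandas 2.3.3, Python 3.11.15), and they cover counting error only. Alternatives were a Coverage of at least 5 or 20, a mixed range of 10% to 90% or 30% to 70%, at least 10 or 40 sites, windows shifted by 500 kb and single-base substitutions only. The window rule was run on simulated data with windows planted free of mixed sites. Its outcome was nearly set in advance, so it checks the code and not how the rule acts on real sites.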

Additional observations from a re-analysis of the deposited data

How the results depend on the processing

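The number of unmixed windows, 118 of 303, depended on how many sites a window had to hold. It was 187 with at least 10 sites and 56 with at least 40. Their share of the windows compared was 45.8% and 30.8% under these settings, 45.1% and 32.3% with a minimum Coverage of 20 and of 5, and 28.1% and 45.2% with a mixed range of 10% to 90% and of 30% to 70%. A minimum Coverage of 5 reads left 86 of the 118 windows among the unmixed ones, and the rest gained a mixed site. A minimum of 20 reads left 59. The rest fell below 20 sites, since taking sites away cannot add a mixed one. The number of windows with an unmixed neighbour, 35 as reported, was 90 with at least 10 sites, 14 with at least 40, 17 with the range of 10% to 90%, 61 with that of 30% to 70%, and 65 with windows shifted by 500 kb. The other 34 of the 47 recomputed values, which include each recomputed median number of sites, indel share and median Frequency, moved by less than 1.5 times or stayed within the interval. At 10 reads a Frequency below 20% means at most 1 alternative read, which the tables do not list. Sites with a rare allele, below the mixed range, are thus missed where Coverage is low.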
